A study of Danio rerio with 12 samples.

Results

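The comparison described here sets the retina of adult zebrafish 2 days after a lesion against the control retina of the same day. It takes in 2 of the 12 arrays of the series, the lesioned and the control retina array whose titles carry day 2. The quantity compared is log2(signal + 50), lesioned minus control, over the 10795 of 15502 probe sets that have a single gene symbol, which cover 8793 genes. Transcript levels were measured from total RNA with biotin-labelled targets on Affymetrix zebrafish arrays, and the signal of a probe set is a scaled intensity on a linear scale. The series also holds lesioned and control retinas of days 3, 5, 7 and 14, 1 array each, 1 true control retina and 1 brain. Controls and lesioned fish were matched animals, with at least 8 for a condition according to the design text, and no genetic alteration is named for any group. For every group the strain, the exact age, the lesion method and how many fish each array stands for are unstated in the labels.

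Adult zebrafish rebuild lost retinal neurons, which mammals do not. The source is the Müller glia, radial glial cells that span the retina, which respond to injury with stress and cytokine signalling, re-enter the cell cycle and give rise to neuronal progenitors. Microglia and other phagocytes gather at the damage at the same time, and fish retinal ganglion cells, unlike those of mammals, can regrow their axons.

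With 1 array on each side the day 2 difference has no replicate of its own, so it carries no p-value. A size rule was used in its place. A probe set counted as higher when its signal plus 50 was at least 2-fold that of the control and the lesioned array also lay above all 6 unlesioned retinas, namely the 5 day controls and the true control, and it counted as lower by the mirror rule. The arrays lie in 2 blocks by the signal of their hybridization controls. Both day 2 arrays share a block with the true control and the day 14 arrays, while days 3, 5 and 7 form the other, so levels are also set against the 3 unlesioned retinas of the day 2 block. The GAPDH 5′/3′ signal ratio, a measure of RNA integrity, was 0.752 in the lesioned and 0.77 in the control retina of day 2, and the median signals were 205.1 and 202.1. The ratio was 0.692 to 0.854 over the block of day 2 but 0.103 to 0.245 on days 3, 5 and 7, where the lesioned array was below its control each day. These arrays enter the unlesioned range, the limma spread and the comparison with later days, and the part of RNA quality in those was not tested. Both arrays carried strong signal of retinal markers: in the lesioned and the control retina, gnat1 of rods had 22736 and 28108, gnat2 of cones 11372 and 14649, gad1b of amacrine cells 8971 and 10469, vsx1 of bipolar cells 2038 and 2682, and glula of Müller glia 12353 and 13091. Of the markers chosen for this check, rho and isl2b had no probe set with a single symbol.

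Many more genes stood above the control than below it at this size. The rule gave 115 higher probe sets (1.07% of 10795) and 10 lower ones (0.0926%), and 18 of the higher ones were at least 4-fold higher while 0 of the lower ones were 4-fold lower. The middle 95% of changes ran from -0.60 to 0.80 on the log2 scale, the median was 0.00, and the extremes were -1.85 and 3.96. Of the 115 and the 10, 92 and 7 were also at least 2-fold from the mean of the 3 unlesioned retinas of the block, in the same direction. Without the condition on the range the counts were 142 and 21. The same 2-fold count between unlesioned arrays of the block gave 77 higher and 62 lower for the day 2 control against the true control, 49 and 78 for it against the day 14 control, and 86 and 111 for the true control against the day 14 control. Against those same 2 other unlesioned retinas the lesioned array had 198 higher and 115 lower, and 169 higher and 97 lower. Unlesioned arrays thus also differed 2-fold from each other at 49 to 111 probe sets in each direction, against 142 higher and 21 lower in the matched pair.

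**Figure D1:**
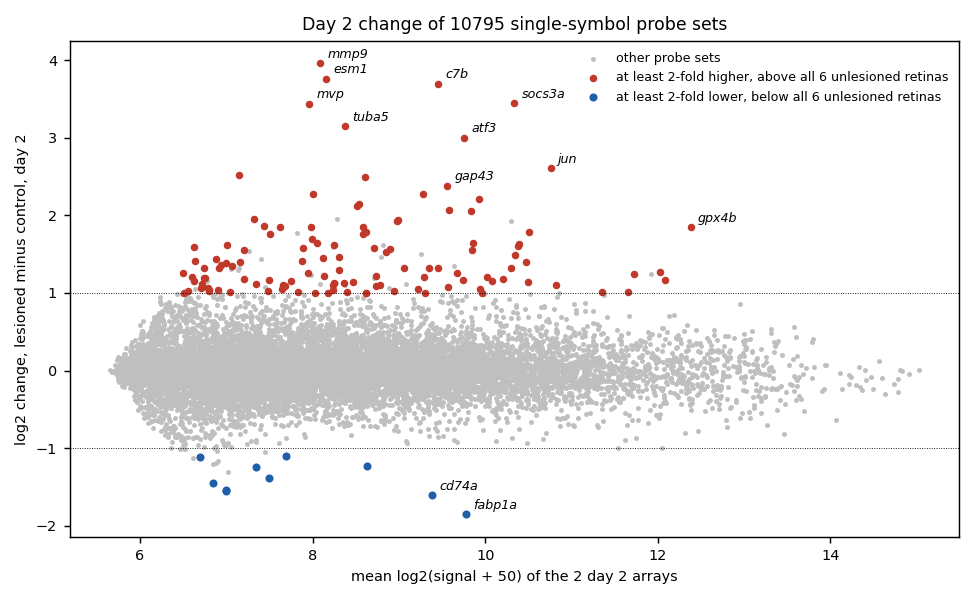
Day 2 change of each single-symbol probe set (y axis, log2 of signal + 50, lesioned minus control) against its mean level on the 2 arrays (x axis, log2 of signal + 50). Red points are the 115 probe sets at least 2-fold higher and above all 6 unlesioned retinas, blue points the 10 at least 2-fold lower and below all 6, and dotted lines mark 2-fold.

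A test was possible only by letting the 6 unlesioned retinas supply the spread. In limma, with the array block as a term and the lone lesioned array assumed to vary like the unlesioned ones, 18 of 9301 probe sets rose (0.194%) and 0 fell (0%), with 546 at an unadjusted p under 0.05. The 16 with a symbol cover 14 genes: the complement gene c7b, the endothelial proteoglycan gene esm1, the vault gene mvp, the growth cone gene gap43, the protease gene mmp9, the stress factors jun and atf3, the actin crosslinker gene flna, the peptide YY gene pyya, the heat shock gene hsp70.3, the cytokine feedback gene socs3b, the granulin gene grna.1, the interferon regulatory factor gene irf1b and the myc family gene mych. The design text gives at least 8 matched animals a condition but not which animals are on which array, so these p-values measure only the spread between arrays, which may be technical. Without the block term limma called 5 probe sets, those of c7b, esm1, gap43 and atf3 and 1 of the 2 of jun. Without the day 3 control it called 32. The filter on level gave the lone lesioned array the same weight as the 6 unlesioned ones together. Genes dim in all unlesioned retinas, such as mmp9 and esm1, could thus enter through their lesioned signal. A gene low in the lesioned array was held back by that signal in the same way. In the text below, rose and fell are kept for genes called by limma.

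**Figure D2:**
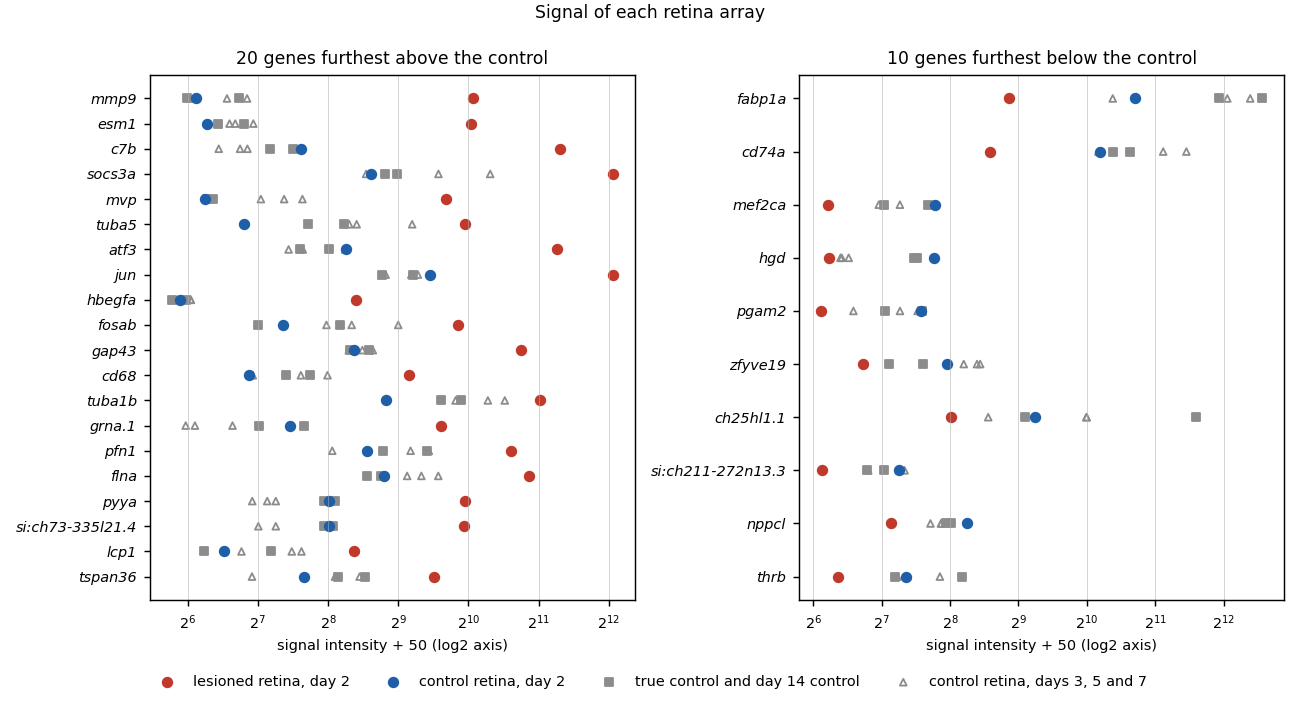
Signal plus 50 (x axis, log2 scale) of the 20 genes furthest above the day 2 control and the 10 furthest below it, among those outside the range of all 6 unlesioned retinas. Each point is 1 array: red the lesioned and blue the control retina of day 2, grey squares the other unlesioned retinas of the same array block, open triangles the unlesioned retinas of days 3, 5 and 7.

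Stress-induced transcription factors are among the first genes that injured cells switch on. AP-1 and ATF factors were the list with the highest median: 8 of 17 measured genes were at least 2-fold higher (1.13% of all 8793 genes were), 10 lay above all 6 unlesioned retinas (20.9%), and the list median was 0.67 against 0.01 over all genes. The factor gene atf3, induced by nerve injury in many cell types, had a signal of 2399 in the lesioned retina, 256 in the control of day 2, and 123.3 to 253.2 in the other 5 unlesioned retinas. It rose, by 3.00 against the matched control and by 3.30 ± 0.34 SE in limma (adjusted p = 0.00377). Its partner gene jun had 4222 in the lesioned retina, 652.4 in the control and 386.3 to 571.6 in the others, so no unlesioned retina came near the lesioned level. It rose by 2.91 ± 0.30 (adjusted p = 0.00377), and a second probe set gave 2.36 ± 0.26 (adjusted p = 0.00547). The AP-1 gene fosab had 877.2 in the lesioned retina, 114.2 in the control and 77.6 to 462.0 in the others. Its change of 2.5 was not called (limma adjusted p = 0.16), and its other 3 probe sets gave 2.13, 1.95 and 1.11. Further members at 2-fold or more were junba (1.65), cebpb (1.62), junbb (1.40), atf5a (1.18) and cebpd (1.0), of which cebpb and cebpd encode C/EBP factors of inflammation. Of the 16 members that could be tested, atf3 and jun rose and 0 fell.

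Among 29 other immediate early genes 1 was 2-fold higher (1.13% of all genes were), and the median was 0.09. That gene, mych, is a fish relative of the growth regulator myc. It had 430.3 in the lesioned retina, 82.8 in the control and 50 to 118.8 in the others, and rose by 1.79 ± 0.28 in limma (adjusted p = 0.0488), a call that held in 5 of 13 alternative settings (adjusted p 0.0178 to 0.608) and was lost without the true control or the day 2, 5 or 7 control. The classical activity gene egr1, named after its value was seen, had 310.9 in the lesioned and 375.3 in the control retina. NF-kB and p53 response genes had 0 of 28 at 2-fold and a median of 0.14.

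Cytokine feedback genes were next. The suppressors of cytokine signalling are induced by STAT3 and shut its receptors off again, and STAT3 activity in Müller glia is part of the regenerative response. The gene socs3a had 4219.6 in the lesioned retina, 342.6 in the control, and 398.5 and 454.1 in the other unlesioned retinas of the block. In the other block it reached 1220.2, and its limma change of 3.26 ± 0.52 was not called (adjusted p = 0.0572). The paralog socs3b had 737.0 in the lesioned retina and 222.6 in the control, with 179.0 to 319.8 in the others. It rose by 1.64 ± 0.23 (adjusted p = 0.0307), a call that held in 7 of 13 alternatives and was lost without the true control or the day 2, 5 or 14 control. The factor gene stat3 itself had 737.2 in the lesioned and 207.6 in the control retina. It was above the 3 unlesioned retinas of the block but below the day 3 control at 802.1 (limma change 1.51 ± 0.38, adjusted p = 0.334). The same held for socs1a, at 210.9 in the lesioned and 39.9 in the control retina, with up to 257.8 in the others. Of the 15 measured genes of this list 2 met the 2-fold rule (1.13% of all genes did). Above the 3 unlesioned retinas of the block lay 13 (33% of all genes did), and the median was 0.46.

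The growth factor gene hbegfa encodes an EGF receptor ligand that is known to set off Müller glia reprogramming in fish. It had 287.6 in the lesioned retina, 9.1 in the control and 4.6 to 16 in the other unlesioned retinas, a matched change of 2.51 between a clear signal and levels far under the lower quartile of the day 2 arrays (75.5 and 77.4). It was too dim on average to enter the limma test. The feedback regulators of the ERK pathway, through which such ligands act, were mostly level: hbegfa was the 1 of 16 genes in their list at 2-fold, the list median was 0.01, and 8 were higher than the control and 8 lower.

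The 3 largest changes belong to the matrix, the vessel wall and complement. The matrix metalloproteinase gene mmp9 had the largest matched change, with 1025 in the lesioned retina, 19.1 in the control and 13.4 to 65.0 in the other unlesioned retinas. Its change of 3.96 is 15.6-fold after the 50 is added. The control level lies far under the lower quartile of the array (77.4) and is not shown to be above background, so the added 50 sets the size and the rank. It rose by 3.79 ± 0.38 in limma (adjusted p = 0.00377). The gene esm1, a proteoglycan secreted by endothelial cells at sprouting vessels, had 1000.1 in the lesioned retina, 27.5 in the control and 36.6 to 72.3 in the others, and rose by 3.53 ± 0.27 (adjusted p = 0.000884). No other of the 25 measured endothelial genes met the 2-fold rule, and the list median was 0.14. Only 8 of the 25 passed the filter on level for the test, esm1 through its lesioned signal. The added 50 also understates changes at low signal. The summed endothelial signal was 4498 in the lesioned and 3135 in the control retina. That was within the unlesioned range of 3135 to 7412 but above the 3 of the block, at 3135, 3187 and 3616. Both sums count esm1 itself, at 1000.1 and 27.5, so they say little about the rest of the list.

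The gene c7b encodes a component of the terminal complement complex. It had 2478 in the lesioned retina, 145.3 in the control and 36.9 to 131.7 in the others, and rose by 3.87 ± 0.26, the lowest adjusted p of the test (0.000688). Of 32 complement and acute phase genes 4 were 2-fold higher by the rule (1.13% of all genes were), and the list median was -0.01. Only 6 of the 32 were bright enough for the test, so this median cannot show whether the list as a whole changed. With dim probe sets filtered out the list median was 0.14. Beside c7b, the other 3 that met the rule were hp (1.59), for haptoglobin, c4b (1.12) and c1qc (1.11). The hp signal was 121.0 in the lesioned retina against 6.7 in the control. Among 18 proteases and inhibitors the lysosomal protease gene ctsla joined mmp9 at 2-fold (1.01), with a list median of 0.16. Matrix and adhesion genes had 1 of 55, icn, and a median of 0.11. In that list anxa2a (1.3) and col10a1a (1.06) lay within the range of the unlesioned retinas. Simple epithelial keratin genes had changes of 1.78 for krt18a.1, 1.47 for krt8 and 1.16 for krt94, but all 3 lay below the highest unlesioned level and 0 of 24 met the rule.

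Phagocyte genes were the most numerous at 2-fold of the 40 lists. Of 48 microglia and leukocyte genes 14 were 2-fold higher and 1 lower (1.13% and 0.091% of all 8793 genes were). Above all 6 unlesioned retinas lay 32 and above the control 40 (20.9% and 51.5% of all genes did), with a median of 0.42. Their summed signal was 40296 in the lesioned and 27870 in the control retina, outside the unlesioned range of 23224 to 31151. In bulk tissue more cells of a type and more RNA per cell cannot be told apart, here or for any cell type below. The lysosomal glycoprotein gene cd68 had 518.3 in the lesioned retina, 66.9 in the control and 71.6 to 204.5 in the others (2.28, limma adjusted p = 0.269). The granulin gene grna.1 had 728.4 in the lesioned retina, 126.0 in the control and 12.7 to 152.1 in the others, and rose by 2.23 ± 0.33 (adjusted p = 0.0419), a call that held in 7 of 13 alternatives and was lost without the true control or the day 2 or 5 control. It was the 1 of 33 tested members that rose. The actin bundler gene lcp1 of leukocytes had 280.6 in the lesioned retina and 41.1 in the control, with 25.3 to 146.8 in the others (1.86). Then came the lysosomal genes ctsc (1.76) and cd63 (1.63), the second granulin gene grna (1.58), the galectin genes lgals2a (1.45) and lgals9l1 (1.41), the chemokine receptor gene cxcr4b (1.41), arpc1b (1.3) of the actin branching complex, the pan-leukocyte gene ptprc (1.26), coro1a (1.14), laptm5 (1.13) and the microglial complement gene c1qc. The macrophage factor gene spi1b, named after its value was seen, had 145.2 in the lesioned and 152.7 in the control retina. Cytokine and chemokine genes had 0 of 9 at 2-fold and a median of -0.03.

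Most antigen presentation genes were higher than the control, 16 of 19, and 3 were lower (51.5% and 48.4% of all genes were). The gene b2m, for the light chain of MHC class I, had 2278 in the lesioned retina, 717.7 in the control and 379.8 to 1671.6 in the others (1.60). The proteasome activator genes psme1 and psme2, which feed class I with peptides, had changes of 1.69 and just under 1.0, and pdia3, a chaperone of class I loading, 1.05. The invariant chain of class II went the other way: cd74a had 333.1 in the lesioned retina, 1115 in the control and 1102 to 2759 in the other 5, so the lesioned array was the lowest of the 7. Its matched change was -1.61, not called against the unlesioned retinas (limma adjusted p = 0.269). Its paralog cd74b, named after its value was seen, had 218.1 in the lesioned retina, 384.4 in the control and 326.0 to 886.8 in the others. Of 19 measured genes of the list 3 were 2-fold higher and 1 lower (1.13% and 0.091% of all genes were). Above all 6 lay 12 and below them 2 (20.9% and 7.68% of all genes did), and the median was 0.44. Interferon-induced genes had 3 of 18 at 2-fold (1.13% of all genes were) and a median of 0.31. The regulator gene irf1b had 681.6 in the lesioned retina, 162.0 in the control and 86.7 to 178.9 in the others, and rose by 1.89 ± 0.28 (adjusted p = 0.042), which held in 6 of 13 alternatives and was lost without the true control or the day 2, 7 or 14 control. The other 2 were irf9 (1.65) and ifi27.1 (1.56).

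**Figure D3:**
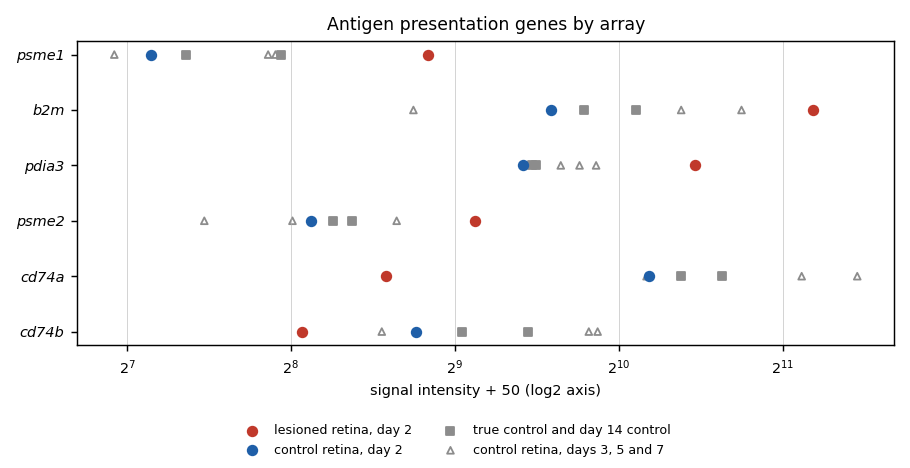
Signal plus 50 (x axis, log2 scale) of 6 antigen presentation genes on each retina array; colours and symbols mark the lesioned retina, the control of day 2 and the other unlesioned retinas. The lesioned point is the highest for psme1, b2m, pdia3 and psme2 and the lowest for cd74a and cd74b.

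Stress genes outside the AP-1 family included chaperones, antioxidant enzymes and ferritins, with the largest changes in hsp70.3 (1.95) and gpx4b (1.84). The inducible heat shock gene hsp70.3 had 562.0 in the lesioned retina, 108.0 in the control, and 74.5 and 122.5 in the other unlesioned retinas of the block, but 487.8 to 694.5 in those of the other block. It rose in the fit with the block term (2.03 ± 0.27, adjusted p = 0.0185), and the call was lost without that term (adjusted p = 0.935), without the day 2 control and without the day 5 control, with adjusted p from 0.00656 to 0.935 over 13 alternatives. Its probe set is of a type that can share probes with near-identical genes. The endoplasmic reticulum chaperone gene hspa5 had 1530 in the lesioned retina, 490.7 in the control, and 446.6 and 763.6 in the block (1.55, limma adjusted p = 0.187). Of 51 chaperone and heat shock genes 3 met the rule (1.13% of all genes did), hspa5, hspb1 (1.16) and pdia3, and the median was 0.35. In the oxidative stress and iron list 4 of 29 met it, beside the same 1.13% of all genes. The glutathione peroxidase gene gpx4b, which protects membrane lipids, had 10072 in the lesioned retina, 2769 in the control and 2945 to 6488 in the others (1.84, adjusted p = 0.1). The others were hp, txnb (1.58), for thioredoxin, and the ferritin gene fthl27 (1.27), whose paralog fthl30 had 2057 in the lesioned and 4178 in the control retina (-1.0). Ferritin probe sets of this family may share probes. Hypoxia and glycolysis genes had 0 of 36 at 2-fold, and igfbp1a, a growth factor binding protein gene, was higher by 1.34 with the lesioned signal of 1221 below the 1378 of the day 7 control.

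Of 55 genes of axon growth and the cytoskeleton 7 were at 2-fold (1.13% of all genes were), with a median of 0.39. The list also counts neuropeptide genes, so pyya and adcyap1b are among the 7, and pyya is among its members that rose. The list holds actin and tubulin genes that cells of many types use, leukocyte actin genes such as lcp1 and coro1a were higher in the same retina, and which cells carried these transcripts was not tested. The growth cone gene gap43, a membrane protein of regrowing axons, had 1675 in the lesioned retina, 281.2 in the control and 264.2 to 348.2 in the other 5, a narrow unlesioned range. It rose by 2.33 ± 0.22 (adjusted p = 0.00359) and kept its call in 13 of 13 alternatives. The actin crosslinker gene flna had 1814 in the lesioned retina, 396.8 in the control and 326.5 to 710.5 in the others, and rose by 2.16 ± 0.24 (adjusted p = 0.00547). The peptide YY gene pyya had 943.9 in the lesioned retina, 208.7 in the control and 71.0 to 223.8 in the others, and rose by 1.94 ± 0.22 (adjusted p = 0.00564), with 1.59 ± 0.23 at its second probe set (adjusted p = 0.0419). The first call was lost only without the block term, and the second held in 4 of 13 alternatives and was lost when any 1 unlesioned array other than the day 3 control was left out. The alpha tubulin gene tuba5 had 938.5 in the lesioned and 61.3 in the control retina, and 159.0 and 250.1 in the other unlesioned retinas of the block. Its control was thus low, and the change of 3.15 against it was 2.37 ± 0.50 in limma (adjusted p = 0.198). The same applied to tuba1b, with 2035 in the lesioned retina, 401.7 in the control, and 728.0 and 906.2 in the block (2.21, against 1.58 ± 0.41 in limma). The actin monomer binder gene pfn1 changed by 2.07 and the neuropeptide gene adcyap1b by 1.16. Retinal ganglion cell genes as a list did not move with gap43, which is itself a member: 1 of 24 met the rule, 15 were lower than the control (48.4% of all genes were) and the median was -0.13.

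Outside all of these lists lay mvp, whose product forms the vault particle of the cytoplasm. It had 772.3 in the lesioned retina, 25.7 in the control, 27.7 and 31.8 in the block and 81.8 to 148.7 in the other block, and rose by 3.39 ± 0.26 (adjusted p = 0.000884). Without the block term the call was lost (adjusted p = 0.636, the highest of 13 alternatives, from 0.000358), and it held in the other 12. Of the 115 higher probe sets 67 belong to a gene of some list and 48 to none. Among the 48 the largest after mvp were si:ch73-335l21.4 (1.93), a gene with no name of its own, and tspan36 (1.86), a tetraspanin gene. The tspan36 gene had 676.8 in the lesioned retina, 150.9 in the control and 70.7 to 317.0 in the others.

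**Figure D4:**
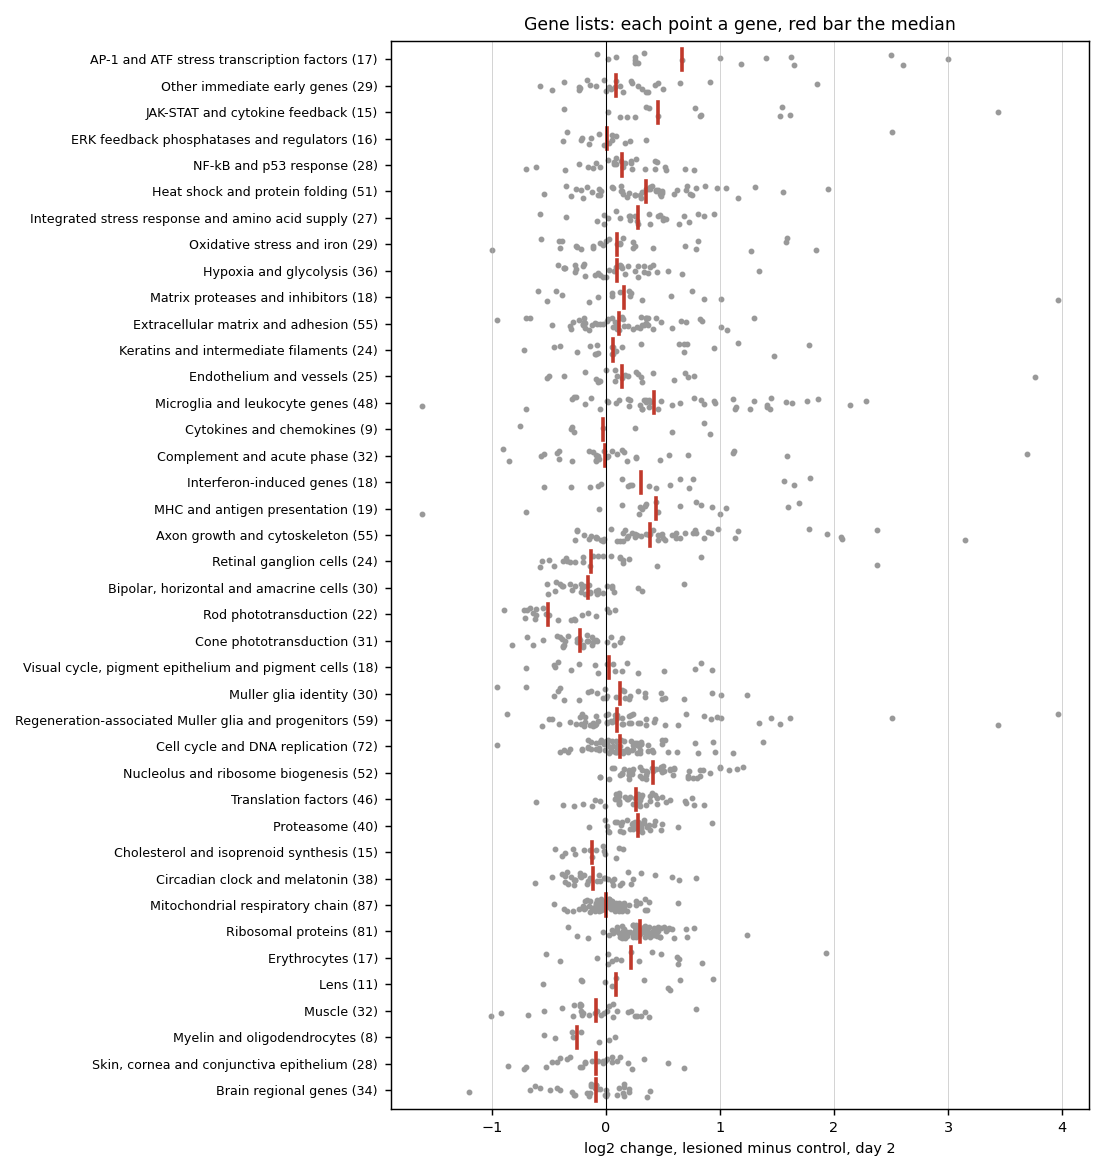
Day 2 change (x axis, log2 of signal + 50, lesioned minus control) of every measured gene of 40 lists, with the number measured in brackets; grey points are genes and red bars list medians. AP-1 and ATF factors have the highest median (0.67) and rod phototransduction the lowest (-0.51).

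Genes of ribosome production and protein synthesis were higher by small amounts in large numbers. Of 52 nucleolar and ribosome biogenesis genes 50 were higher than the control, with a median of 0.41. Above the 3 unlesioned retinas of the block lay 46, and above all 6 lay 34. None of those tested rose, where few probe sets of any kind did. The 2-fold rule was met by 3 of the 52, beside 1.13% of all genes. They were nop58 and npm1a, for nucleolar proteins, and nop16. The nop58 gene had 899.6 in the lesioned retina, 363.1 in the control and 337.6 to 460.7 in the others (1.26 ± 0.20 in limma, adjusted p = 0.0532). Ribosomal protein genes were higher than the control in 77 of 81 cases, with a median of 0.30, and 0 met the rule. Proteasome genes were higher in 38 of 40 (median 0.28) and translation factors in 38 of 46 (median 0.26), again with 0 at 2-fold. Of all genes 51.5% were higher than the control. Above the 3 of the block lay 56 ribosomal protein, 24 proteasome and 28 translation factor genes (33% of all genes did). Above all 6 lay only 24 of 81, 9 of 40 and 11 of 46 (20.9% of all genes did).

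Genes of Müller glia, of their reprogramming and of proliferation had low list medians at this day, with more members at 2-fold than the 1.13% of all genes. Of 30 Müller glia genes 2 met the rule, the radial glia fatty acid binding gene fabp7a (1.24) and the S100 family gene icn (1.01), and the median was 0.12. The icn gene is not particular to this list, as it is also the gene counted in the matrix and adhesion list. The fabp7a gene had 5153 in the lesioned retina, 2153 in the control, and 3312 and 4430 in the block, so its control was low. The calcium binding gene s100b had 14.6 in the lesioned retina, 75.6 in the control and 39.6 to 84.7 in the others (-0.96). The glial filament gene gfap, named after its value was seen, had 623.8 in the lesioned and 584.1 in the control retina. Of 59 regeneration-associated genes 6 met the rule: mmp9, socs3a, hbegfa, socs3b, lgals2a and ascl1a. All of these but ascl1a are also counted in the protease, cytokine feedback, ERK or phagocyte lists above, so they are not separate findings. The proneural factor gene ascl1a, needed for retinal regeneration, had 428.3 in the lesioned retina, 188.1 in the control and 52.1 to 151.4 in the others (1.01, limma 1.23 ± 0.25, adjusted p = 0.16). Cell cycle and DNA replication genes had 2 of 72 at 2-fold, the helicase gene mcm5 (1.38) and tyms (1.11), which makes thymidylate. In that list 42 lay above all 6 unlesioned retinas (20.9% of all genes did), 46 above the 3 of the block (33%), and 52 of 72 were higher than the control, with a median of 0.12.

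Photoreceptor genes were lower, by amounts under 2-fold. Of 22 rod genes 19 were below the control (48.4% of all genes were) and 15 below the 3 unlesioned retinas of the block (21.8%). Below all 6 lay 6 of them (7.68% of all genes did), and the median was -0.51, the lowest of the 40 lists. The largest differences were in prph2b, a disc rim protein gene, at 1147 in the lesioned and 2161 in the control retina (-0.89), and guca1b, a guanylate cyclase activator gene, at 5485 and 9098 (-0.72). Next was cnga1a, a channel subunit gene, at 2452 in the lesioned retina, 4035 in the control and 2631 to 5322 in the others (-0.71). Of 31 cone genes 26 were below the control (48.4% of all genes) and 12 below all 6 (7.68%), with a median of -0.23. The green cone opsin gene opn1mw1 had 8437 in the lesioned retina, 14886 in the control and 11641 to 19038 in the others (-0.82, limma -0.96 ± 0.21, adjusted p = 0.219). The retinoid carrier gene rbp3, secreted by photoreceptors, had 7671 in the lesioned retina, 12472 in the control and 12675 to 15316 in the others (-0.70). No rod or cone gene met the 2-fold rule, which 0.091% of all genes met on the lower side. Limma called none of them, but it called no probe set of any kind lower. Bipolar, horizontal and amacrine genes were lower in 23 of 30 (48.4% of all genes), with 9 below all 6 (7.68%) and a median of -0.16. Of 87 respiratory chain genes 44 were higher and 43 lower than the control (median 0.00). But 7 of these genes lay above and 37 below the 3 unlesioned retinas of the block (33% and 21.8% of all genes). Against all 6, 5 of these genes lay above and 21 below (20.9% and 7.68% of all genes). Their median against the mean of the block was -0.13, and their summed signal was 277891 in the lesioned retina and 279834 in the control, against 325961 and 324772 in the other unlesioned retinas of the block. Of 15 cholesterol synthesis genes 10 lay below the 3 of the block (21.8% of all genes) and 5 below all 6 (7.68%). Their median was -0.12 against the control and -0.32 against the mean of the block. Circadian clock and melatonin genes had a median of -0.11. These 3 lists had 0 genes at 2-fold.

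Markers of cells that a dissected retina can carry with it were also measured. The summed signal in the lesioned and the control retina was 10116 and 9483 for erythrocyte genes, 4210 and 4698 for muscle, 7028 and 7603 for brain regional genes and 973 and 915 for lens. It was 5839 and 6395 for surface epithelium, 6325 and 7694 for myelin and 19177 and 24098 for pigment epithelium and pigment cells. The last 3 lay below the unlesioned ranges (6350 to 7521, 7694 to 15503 and 24098 to 54458), and the lens sum lay above its range (416 to 924). The alpha globin gene hbaa1 had 2417 in the lesioned and 597.5 in the control retina (1.93), but 1000.0 and 6429 in the other unlesioned retinas of the block, so it lay inside the range. The part of these cells in the results was not tested.

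The genes furthest below the control were few. The liver-type fatty acid binding gene fabp1a had 413.3 in the lesioned retina, 1619 in the control and 1282 to 6015 in the others. Its change was -1.85, and -1.38 at the second probe set. Against the unlesioned retinas of the block its fitted change was -2.88 ± 0.79, and it was not called. After cd74a came mef2ca, a muscle and neuronal transcription factor gene, with 24.4 in the lesioned retina, 168.9 in the control and 74.4 to 154.4 in the others (-1.56). The gene hgd, for an enzyme of tyrosine breakdown, had 25.1 in the lesioned retina, 168.3 in the control and 34.4 to 133.4 in the others (-1.54). Lesioned signals of both lay under the lower quartile of the array. The remaining 6 were pgam2 (-1.46), zfyve19 (-1.24), the cholesterol hydroxylase gene ch25hl1.1 (-1.23), si:ch211-272n13.3 (-1.12, with 0.01 at another probe set), nppcl (-1.11) and the thyroid hormone receptor gene thrb (-0.99, with -0.20, -0.03 and 0.21 at its other probe sets). Lesioned signals of pgam2 (19.3), zfyve19 (55.6), si:ch211-272n13.3 (20.3) and thrb (32.4) also lay under the lower quartile (75.5). The unlesioned signal of ch25hl1.1 ran from 497.5 to 3061.8 within the block.

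Probe sets that were higher on day 2 were mostly still higher later. The 115 were chosen for their size on day 2, which by itself makes smaller changes on other days likely. The rule also required the lesioned signal of day 2 to exceed the controls of the later days. Those controls are the reference of the later changes, which by itself favours higher counts there. The 115 had a median change of 1.32 on day 2 and of 0.99, 0.88, 0.59 and 0.31 on days 3, 5, 7 and 14. Their signal was higher than in the control of the day in 101, 105, 104 and 91 cases, beside 51.9%, 54.7%, 54.4% and 50.2% of all single-symbol probe sets. It was at least 2-fold higher in 56, 46, 32 and 7. How many of all probe sets were 2-fold higher on those days was not counted, so these last counts have no baseline. The 10 lower probe sets had medians of -1.42 on day 2 and of 0.04, 0.14, 0.09 and -0.18 on the later days. Phagocyte genes had a higher median on days 3, 5 and 7 (0.89, 0.77 and 0.86) than on day 2, whereas that of chaperone genes was 0.00, 0.05 and 0.10 on those days. The summed chaperone signal of unlesioned retinas was 59550 to 64491 in the day 2 block but 82942 to 91523 on days 3, 5 and 7. In the lesioned retina of day 2 it was 78557, and the part of the array block was not tested. Each day is 1 pair of arrays, and these differences between list medians were not tested.

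**Figure D5:**
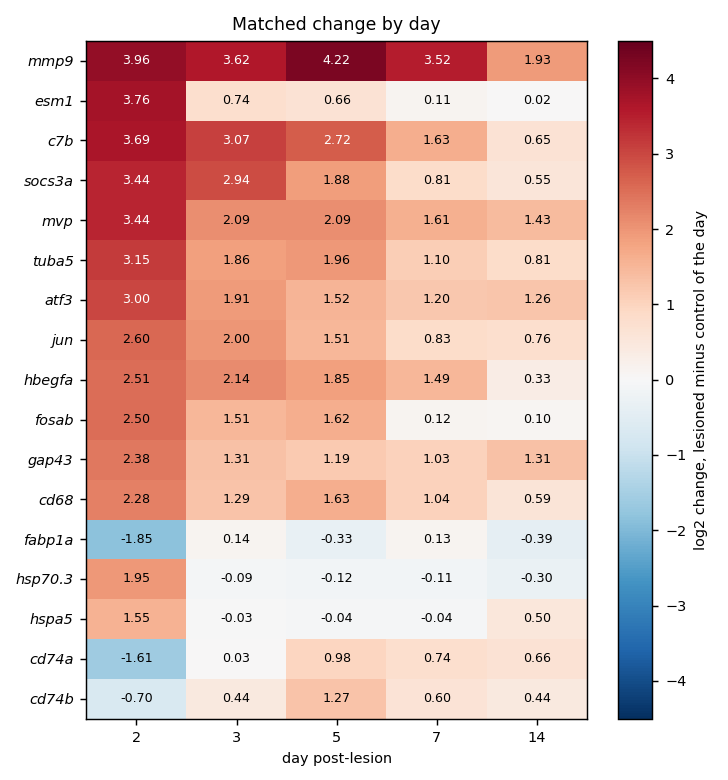
Matched log2 change (lesioned minus control of the same day, signal + 50) of 17 genes at 2, 3, 5, 7 and 14 days post-lesion; each cell is 1 pair of arrays. The change of mmp9 stays between 3.52 and 4.22 up to day 7, that of esm1 is 3.76 on day 2 and at most 0.74 later, and that of hsp70.3 is 1.95 on day 2 and -0.30 to -0.09 later.

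Whether a day 2 change differed from that of the other days was tested with limma on the 5 matched changes. Day 2 supplies a single change, so all the spread comes from days 3, 5, 7 and 14 of a time course, treated as replicates of each other. Of 9301 probe sets, 3 had a higher change on day 2 (0.0323%) and 3 a lower one (0.0323%), with 279 at an unadjusted p under 0.05. Of these 6, 4 have a symbol. The change of hsp70.3 was higher by 2.11 ± 0.27 (adjusted p = 0.0124), with -0.09, -0.12, -0.11 and -0.30 on days 3, 5, 7 and 14, and kept its call in 9 of 9 alternatives. The second probe set of jun was higher by 1.91 ± 0.30 (adjusted p = 0.0239). The brighter probe set of jun, at 2.60 on day 2 and 2.00, 1.51, 0.83 and 0.76 on the later days, was not called (1.33, adjusted p = 0.953). The change of cd74a lay below the others, at -2.21 ± 0.32 (adjusted p = 0.0166), with 0.03, 0.98, 0.74 and 0.66 on the later days. That of fabp1a was at -1.73 ± 0.28 (adjusted p = 0.0275), with 0.14, -0.33, 0.13 and -0.39, while its second probe set was not called (-1.31, adjusted p = 0.242). Without the day 3 pair 12 probe sets passed, and without the day 7 pair 2, where jun, cd74a and fabp1a lost their calls. The gene esm1 was too dim over all days to enter this test.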

How the data were processed

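The authors deposited 1 table of signal intensity per probe set and array, made with GCOS per the submitters' processing notes, whose version was not recorded there. With 2% of probe sets trimmed at each end, every array averaged an intensity of 500.1, so the deposited intensities were already scaled to a common mean, and they were not normalized again. Detection calls were not used. Of 15617 probe sets 115 manufacturer controls were left out. By the platform annotation 10795 probe sets carry 1 symbol, 135 carry several and 4572 are unnamed here. The gene identifiers of 10711 were found in a current gene table, which changed 1 symbol.

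Values were analysed as log2(signal + 50), which understates fold changes at low signal. The array block was read from 18 hybridization control probe sets, split at the widest gap. Tests used limma 3.58.1 in R 4.3.3 (lmFit, eBayes with an intensity trend, two-sided), checked on simulated data. Benjamini-Hochberg adjustment covered all 9301 probe sets at or above the 40th percentile of mean level, with a threshold of 0.05. For the test against unlesioned retinas that level was the mean of the lesioned value and the unlesioned mean. For the test between days it was the mean over the lesioned and control arrays of all days. Tables and plots used Python 3.11.15 with pandas 2.3.3 and matplotlib 3.10.9. A gene in a list is represented by its brightest probe set.

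Named were the 20 genes furthest above and the 10 furthest below the day 2 control outside the range of the 6 unlesioned retinas. Also named were probe sets called by limma, and members of the 40 lists among the 4 largest changes of a list or changed 2-fold. Other genes are marked in the text. Not all such list members are named. The brain regional and muscle genes furthest down (-1.2 and -1.01) and the ribosomal protein gene furthest up (1.24) are left out. The day, the lists and the rules were chosen with earlier results of these data known. Alternatives were other pseudocounts, no filter, quantile normalization, no block, the same block only, other references, no intensity trend and leaving out each array. The number of arrays limits the precision. No sequences or coordinates were used here.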

Additional observations from a re-analysis of the deposited data

Results flagged for a closer look

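Over the 5 matched changes of a gene, 1 day stood far from the other 4 for 5 of the named genes, by a gap test that flags about 1 in 20 groups by chance. That rate does not apply where day 2 is the odd day, because the genes were named for their extreme day 2 change, so these 4 are given as values only. For esm1 the day 2 change of 3.76 stood above 0.02 to 0.74 on the later days. For gap43 it was 2.38 on day 2 against 1.03 to 1.31, but the limma test of day 2 against the other days did not call it (1.17 ± 0.27). For fabp1a it was -1.85 on day 2 against -0.39 to 0.14, and for si:ch211-272n13.3 it was -1.12 against 0.12 to 0.51, though another probe set of that gene gave 0.01. For pfn1 the odd day was day 14, at 0.12, with 1.56 to 2.07 before it. The number of genes put through the gap test is not given here. The pfn1 flag therefore cannot be set against that rate, and it too is given as values only.

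The test of day 2 against the other days, with limma, set 4 named probe sets apart: hsp70.3 by 2.11 (adjusted p = 0.0124), the second probe set of jun by 1.91 (adjusted p = 0.0239), cd74a by -2.21 (adjusted p = 0.0166) and fabp1a by -1.73 (adjusted p = 0.0275). The unlesioned signal of hsp70.3 also differed between array blocks, at 74.5 to 122.5 in the block of day 2 and 487.8 to 694.5 in the other, and the part of the block in its difference between days was not tested.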

How the results depend on the processing

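The count of 115 higher probe sets was 206 with a pseudocount of 16 and 71 with 100. That of 10 lower ones was 35 with a pseudocount of 16, 5 with dim probe sets filtered out, 19 by the range of the same block, 21 with no range condition, 23 against the mean of the same block and 43 against that mean without the day 2 control. With this last reference hbaa1 was at -0.08 in place of 1.93, col10a1a at -0.10 in place of 1.06 and krt94 at -0.39 in place of 1.16; the cause was not tested. The 18 limma calls against unlesioned retinas were 5 with no block, and 12 to 32 when 1 array was left out, 32 without the day 3 control. The 6 calls of day 2 against the other days were 3 with no filter, and 2 (without day 7) to 12 (without day 3) when a pair was left out. Of 532 recomputed gene changes 170, from 75 results, moved by more than the spread and 3 reversed, 52 of 244 gene calls were lost, and 10 of 240 list medians moved. The medians of complement, pigment epithelium, ERK feedback, erythrocyte, lens, muscle, epithelium and brain lists changed sign in some settings, all within 0.39 of 0. No paired analysis was possible because day 2 has 1 lesioned and 1 control array; the matched changes of the 5 days entered only the test between days. Signals under an array's lower quartile and a lone lesioned array limit what can be called.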
